A study of Mus musculus with 12 samples.

Results

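The glycinergic genes described here are the 3 main α subunit genes of the glycine receptor (*Glra1*, *Glra2*, and *Glra3*), its β subunit gene (*Glrb*), the scaffold gene *Gphn*, and the transporter genes *Slc6a5* and *Slc6a9*. They were taken by their symbols, which name the parts of the glycinergic synapse, and are 7 of the 55418 genes counted. Brainstem (medulla and pons) of outbred CFW mice was measured at postnatal day (P)15, with 1 mouse per library. The pups were injected subcutaneously 2 times daily from P1 to P14 with saline (3 females and 3 males) or with 15 mg/kg morphine (3 females and 3 males). All tissue was taken 16 h after the last injection, so the morphine mice were in spontaneous withdrawal. Nothing in the labels gives the dam of a mouse. The question asked of these genes was whether repeated neonatal morphine changed their RNA levels, in both sexes together or in either sex.

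Glycine is the main fast inhibitory transmitter of the brainstem and spinal cord. It opens chloride channels built from α and β subunits. The β subunit binds gephyrin, which gathers the receptors opposite glycine-releasing terminals. *Slc6a5* encodes GlyT2, which returns glycine to the terminals of glycinergic neurons and marks those neurons. *Slc6a9* encodes GlyT1, which is found mostly in glia and clears glycine from around the synapse. Variants of *Glra1*, *Glrb*, and *Slc6a5* cause startle disease, and the circuits that use this transmitter include those of breathing, reflexes, and movement. In the first weeks after birth the α2 subunit gives way to α1 in much of the brainstem and cord.

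The α subunit genes are close relatives, and so are the 2 transporter genes, so the sequences below show how much of a 100-base read such a pair can share. The capitals mark the longest identical stretch between annotated coding transcripts, with 20 bases of either side in lower case (GRCm38, GENCODE M21 transcripts, all within coding exons). In the α genes the stretch lies in exon 7, where the first membrane-spanning segment begins. It is 26 bases long between *Glra1* (capitals at chr11:55527387-55527412, minus strand) and *Glra2* (chrX:165252352-165252377, minus strand). Between *Glra2* and *Glra3* (chr8:56089040-56089065, plus strand) it is also 26 bases, and the capitals of *Glra3* mark that match.
Glra1: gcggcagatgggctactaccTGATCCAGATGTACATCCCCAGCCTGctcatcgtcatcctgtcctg
Glra2: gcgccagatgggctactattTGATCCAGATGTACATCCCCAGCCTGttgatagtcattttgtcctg
Glra3: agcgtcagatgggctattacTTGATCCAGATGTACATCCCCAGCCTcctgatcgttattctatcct
The transporter genes share at most 15 bases, in exon 9 of *Slc6a5* (chr7:49938384-49938398, plus strand) and exon 8 of *Slc6a9* (chr4:117864000-117864014, plus strand).
Slc6a5: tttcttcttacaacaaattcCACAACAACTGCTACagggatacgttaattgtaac
Slc6a9: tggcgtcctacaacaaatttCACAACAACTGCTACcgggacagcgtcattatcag
No stretch shared within either family approached the length of a read. Overlap with genes on the opposite strand is a different matter, since no strand setting for the counting was given. *Slc6a9* (chr4:117834506-117875198) shares 1429 exon bases with *Ccdc24*, 511 with *Gm17114*, and 46 with *B4galt2*, and its counts are uncertain to that extent. *Gphn* (chr12:78226379-78684772) shares 147 exon bases with *Gm48226*, and *Glra1* (chr11:55514238-55608198) shares 141 with *Gm12236*. *Glra2* (chrX:165129017-165327393), *Glra3* (chr8:55940460-56130070), *Glrb* (chr3:80843599-80913660), and *Slc6a5* (chr7:49910146-49963856) share no exon base with another gene.

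Between 27850565 and 48097947 counts per library fell on genes. All 8 markers of medulla and pons were found in every group, with a summed level of 77.1 to 110.6 CPM (counts scaled to a common library size after TMM normalization), whereas 6 Hox genes of the thoracic to sacral cord summed to at most 0.0870 CPM. Choroid plexus markers varied widely, from 9.68 to 835.6 CPM in sum. Of the forebrain genes, *Emx1* did not exceed 0.153 CPM but *Neurod6* lay between 7.04 and 13.2 CPM. The library labelled morphine male 6 did not match its label. It held 380.4 CPM of *Xist*, against 0.399 to 2.65 CPM in the other 5 males and 550.4 to 978.7 CPM in females. Its Y-linked *Ddx3y* was at 12.8 CPM, against 114.9 to 199.1 CPM in the other males and 0.058 to 0.734 CPM in females. Both levels thus lay between those of the other males and those of the females. The library stayed in its labelled group, and the main results that rest on males are also given without it.

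All 7 genes were well expressed, and their order was similar in the 12 libraries once exon length was taken into account. In CPM per kb of merged exons, *Glrb* was highest at 94.0 ± 12.2 (SD, n = 12), followed by *Slc6a5* at 76.6 ± 7.72 and *Gphn* at 28.7 ± 1.85. *Glra1* stood at 23.8 ± 4.10, *Slc6a9* at 17.6 ± 5.77, *Glra2* at 9.77 ± 1.70, and *Glra3* at 4.28 ± 0.743 CPM per kb. The β gene was above *Slc6a5* in 12 of 12 libraries, by 1.04- to 1.57-fold, although their ranges overlapped. *Slc6a5* was above *Gphn* by 2.31- to 3.02-fold without overlap, and *Glra2* was above *Glra3* by 1.84- to 3.13-fold without overlap. Neighbors in the middle of the order were not cleanly separated. *Gphn* exceeded *Glra1* in 11, *Glra1* exceeded *Slc6a9* in 10, and *Slc6a9* exceeded *Glra2* in 11 of the 12 libraries. With the longest transcript as the length, *Slc6a9* moved to 25.99 CPM per kb and was above *Glra1* (24.0) in 5 of the 12, so the order of these 2 genes depends on the length used. With that length *Glrb* was above *Slc6a5* by 1.57- to 2.37-fold without overlap, and *Glra2* above *Glra3* by 1.30- to 2.22-fold with overlap.

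**Figure D1:**
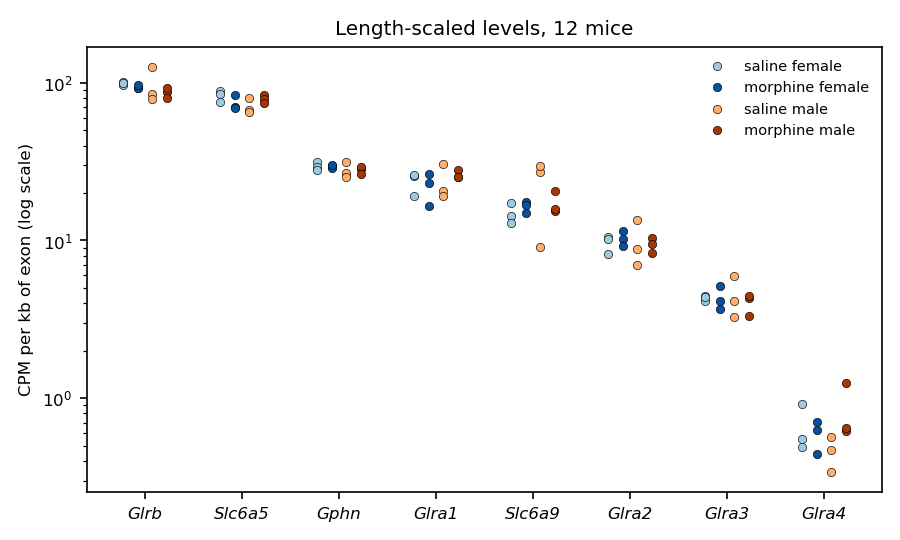
CPM per kb of merged exons on a log axis for the 7 glycinergic genes and *Glra4*, 1 point per mouse, with colors for the 4 groups. *Glrb* and *Slc6a5* sit at the top, *Glra3* lies lowest among the 7, and *Glra4* is below all of them at 0.339 to 1.25 CPM per kb.

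The transporter genes behaved unlike each other. *Slc6a5* was at 636.1, 540.1, and 612.9 CPM in the saline females and at 504.3, 599.3, and 499.0 CPM in the morphine females. It was at 482.8, 467.6, and 575.0 CPM in the saline males and at 605.4, 565.6, and 534.6 CPM in the morphine males. These values fill a narrow band in which every group overlaps the others of its sex. *Slc6a9* was at 88.2, 73.3, and 66.2 CPM in saline females and at 90.1, 76.4, and 86.5 CPM in morphine females. In saline males it was at 139.8, 151.9, and 46.7 CPM, and in morphine males at 79.5, 81.0, and 105.7 CPM. The saline males thus held both the highest values of *Slc6a9* and the lowest one. Over the 12 mice the coefficient of variation was 32.8% for *Slc6a9*, and 93.1% of the 7813 genes of at least 20 CPM had a lower one. It was 10.1% for *Slc6a5*, with 28.6% of those genes lower.

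Among the receptor genes, *Glra1*, the adult α subunit, was at 61.9, 46.5, and 62.5 CPM in saline females and at 63.6, 56.0, and 40.0 CPM in morphine females. It was at 73.8, 50.0, and 46.0 CPM in saline males and at 67.1, 60.8, and 60.5 CPM in morphine males. *Glra2*, the fetal α subunit, stood at 33.0, 25.9, and 32.0 CPM in saline females, at 32.1, 29.2, and 36.2 CPM in morphine females, at 27.6, 22.0, and 42.6 CPM in saline males, and at 32.7, 29.7, and 26.1 CPM in morphine males. Both genes overlapped between saline and morphine mice in each sex, and saline male 3 had the highest *Glra2* of the 12. *Glra3*, which is best known from spinal pain circuits, lay at 38.0, 41.2, and 40.1 CPM in saline females and at 47.4, 38.3, and 33.8 CPM in morphine females. In males it was at 38.2, 30.0, and 54.9 CPM with saline and at 39.5, 40.7, and 30.4 CPM with morphine. Saline male 3 was again the highest and saline male 2 the lowest.

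*Glrb* was at 467.9, 450.7, and 462.2 CPM in saline females and at 430.7, 428.8, and 453.3 CPM in morphine females. In males it was at 392.4, 367.8, and 583.9 CPM with saline and at 407.5, 433.3, and 374.4 CPM with morphine. The groups overlapped in both sexes, and saline male 3 stood above the other 11. *Gphn*, whose product also makes the molybdenum cofactor, was at 117.1, 109.6, and 105.6 CPM in saline females and at 110.4, 107.7, and 112.6 CPM in morphine females. It was at 101.0, 94.9, and 118.6 CPM in saline males and at 106.2, 109.4, and 99.5 CPM in morphine males. It was the steadiest of the 7, with a coefficient of variation of 6.43%, and 7.41% of the genes of at least 20 CPM had a lower one.

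**Figure D2:**
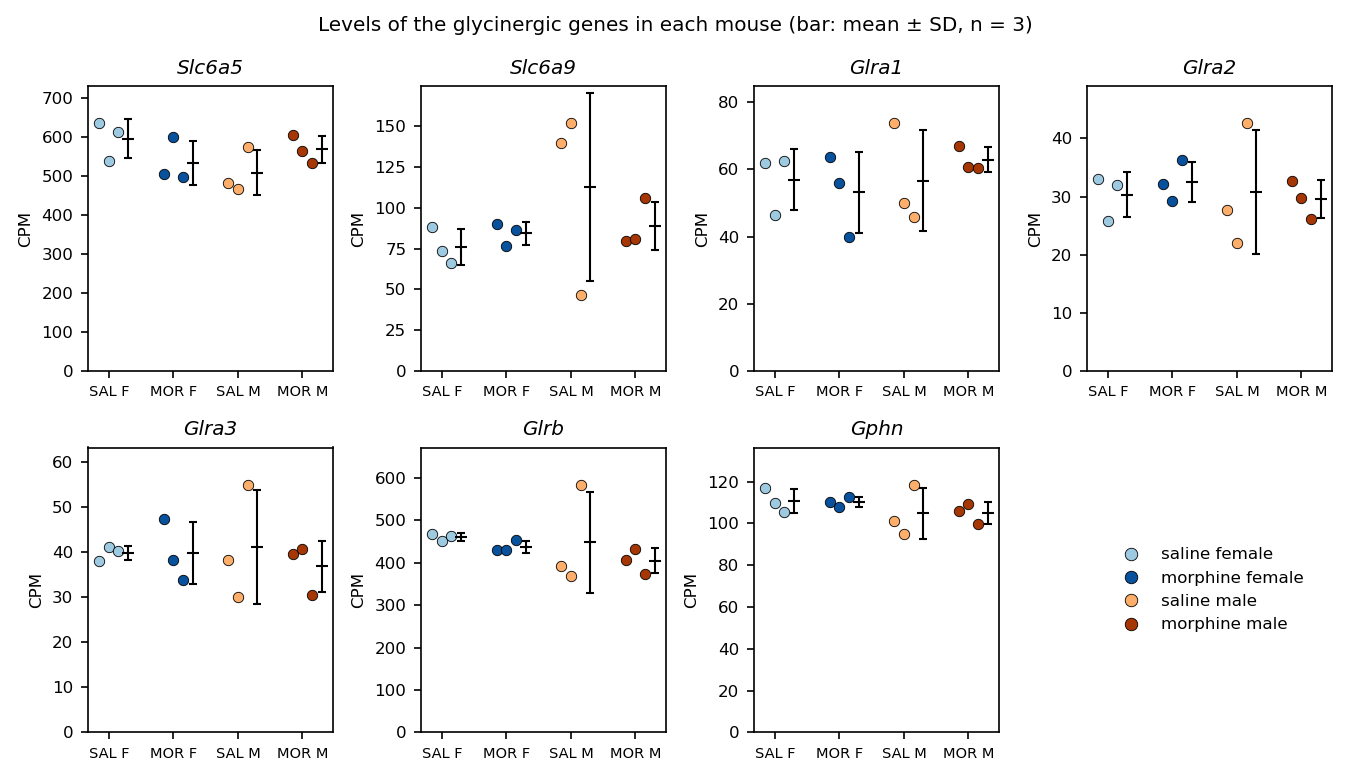
CPM after TMM normalization of each of the 7 genes, from 0 on a linear axis, with 1 point per mouse in the order of the replicate numbers and a bar for the mean ± SD of 3 mice (SAL, saline; MOR, morphine; F, female; M, male). Saline and morphine points overlap in both sexes for every gene, and the points of *Slc6a9* in saline males run from 46.7 to 151.9 CPM.

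*Glra1* made up most of the α subunit RNA at P15. Of the summed CPM per kb of *Glra1*, *Glra2*, *Glra3*, and the minor gene *Glra4*, its share was 61.6% ± 6.08 (SD, n = 12), with a range from 48.7% to 69.7%. *Glra2* held 25.6% ± 4.71, *Glra3* 11.2% ± 1.83, and *Glra4* 1.65% ± 0.545. *Glrb* stood at 2.47 ± 0.406 times the summed α level, between 1.92 and 3.21 times in single libraries, with merged exons as the length. With the longest transcript as the length, the mean was 144.5 CPM per kb for *Glrb*. It was then 24.0 for *Glra1*, 9.77 for *Glra2*, 6.05 for *Glra3*, and 0.698 for *Glra4*. The shares and the *Glrb* ratio thus depend on the length used, and the ratio of these means is higher. Shares and ratio are of RNA levels scaled by length, and fewer cells of a type and less RNA per cell cannot be told apart in bulk tissue.

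**Figure D3:**
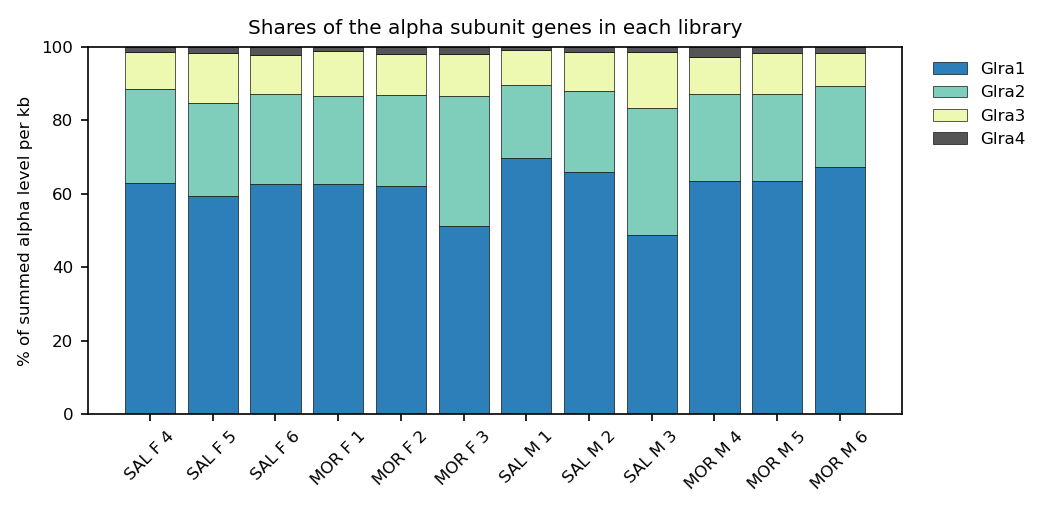
Stacked bars of the percent that each α subunit gene took of the summed α level per kb in each of the 12 libraries (SAL, saline; MOR, morphine; F, female; M, male). *Glra1* is the largest part in all 12, and its 2 lowest shares are 48.7% in saline male 3 and 51.2% in morphine female 3.

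The *Glra1* to *Glra2* ratio, which follows the postnatal change of subunit, did not differ detectably by treatment. Its log2 value was 0.89 ± 0.38 (SD, n = 6) in morphine mice and 0.90 ± 0.44 (SD, n = 6) in saline mice. The difference of -0.01 had *p* = 0.945 in an exact two-sided permutation test within sex. It was -0.22 in females (exact permutation *p* = 0.9) and 0.19 in males (exact permutation *p* = 0.9), where 3 mice against 3 cannot go below 0.1. The ratio was lowest in saline male 3 (0.11) and morphine female 3 (0.14), and the other 10 mice lay between 0.85 and 1.42. The *Slc6a5* to *Slc6a9* ratio sets RNA of the neuronal transporter against that of the mostly glial one. On the log2 scale it was 2.68 ± 0.26 in morphine mice and 2.66 ± 0.79 in saline mice (exact permutation *p* = 0.98). It was 1.79, 1.62, and 3.62 in the saline males, which bracketed all other mice. The library GC measure given below was 0.65, 0.83, and -0.82 in the same saline males. GC content was 48.2% for *Slc6a5* and 57.0% for *Slc6a9*, and 52.7% for *Glra1* and 41.3% for *Glra2*. The part of GC content in either ratio was not tested. The differences within females (-0.32, exact permutation *p* = 0.3) and within males (0.35, exact permutation *p* = 0.7) had Benjamini-Hochberg adjusted values of 0.98 over the 6 tests, as did the other 4. Without morphine male 6 the male differences were 0.13 for *Glra1* to *Glra2* (exact permutation *p* = 1.0) and 0.52 for *Slc6a5* to *Slc6a9* (exact permutation *p* = 0.5). Without saline male 3 they were -0.21 (exact permutation *p* = 0.3) and 0.99 (exact permutation *p* = 0.1, the smallest possible).

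In the sex-combined comparison, 0 of the 7 genes passed the study's thresholds (unadjusted *p* under 0.05 and absolute log2 fold change over 0.26, edgeR quasi-likelihood test), beside 1.19% of all 18608 genes tested. The groups of 6 overlapped for every member, and over all genes 0.0376% did not overlap. Log2 fold changes of morphine over saline were 0.00 (standard error 0.09) for *Slc6a5*, -0.10 (0.23) for *Slc6a9*, 0.03 (0.14) for *Glra1*, and 0.02 (0.15) for *Glra2*. They were -0.08 (0.14) for *Glra3*, -0.11 (0.10) for *Glrb*, and 0.00 (0.07) for *Gphn*. All 7 adjusted *p* values were 1.00. The median over the members was 0.00, and over all genes it was -0.02. How small a change these data could have missed differed among the genes. The 95% interval ran from -0.15 to 0.15 for *Gphn* and from -0.20 to 0.20 for *Slc6a5*, which leaves out a change as large as the 0.26 threshold. For *Slc6a9* it ran from -0.60 to 0.40, and for *Glra1* from -0.28 to 0.34.

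In females, 0 of 7 genes passed (1.81% of all genes), and 0 of 7 had groups that did not overlap (5.67% of all genes). *Slc6a5* was at 534.2 ± 56.4 CPM in morphine females and 596.4 ± 50.1 CPM in saline females (SD, n = 3 each), for which the log2 fold change was -0.17 (standard error 0.10, unadjusted *p* = 0.137). *Slc6a9* was at 84.3 ± 7.11 and 75.9 ± 11.2 CPM, and its log2 fold change was 0.15 (0.12). The others lay between -0.11 for *Glra1* and 0.09 for *Glra2*. Without saline female 4, *Slc6a9* passed the thresholds at 0.26 (unadjusted *p* = 0.0393, adjusted *p* = 0.611), as did 7.95% of all genes. *Glrb* had the tightest interval of the female comparison, from -0.25 to 0.09.

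In males, 0 of 7 genes passed (2.99% of all genes), and 0 of 7 had groups that did not overlap (8.86% of all genes). *Slc6a9* was at 88.7 ± 14.7 CPM in morphine males and 112.8 ± 57.6 CPM in saline males (SD, n = 3 each). Its log2 fold change of -0.37 (standard error 0.41) had an interval from -1.34 to 0.60. *Slc6a5* was at 568.6 ± 35.5 and 508.5 ± 58.1 CPM, a log2 fold change of 0.13 (0.13), and *Glrb* at 405.1 ± 29.5 and 448.0 ± 118.3 CPM, with -0.17 (0.20). The remaining 4 lay between -0.18 for *Glra3* and 0.12 for *Glra1*. The member median was -0.09 and that of all genes -0.06. Without morphine male 6 the count of passing members was again 0, with *Slc6a9* at -0.53 and *Slc6a5* at 0.16.

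The difference between the sexes was tested as an interaction, and 0 of 7 genes passed (2.94% of all genes). The change in males minus that in females was 0.32 (standard error 0.17) for *Slc6a5*, with an unadjusted *p* of 0.086, and -0.50 (0.46) for *Slc6a9*. Adjusted *p* values were 0.98 or higher for all 7. Without morphine male 6 these estimates were 0.36 and -0.65, and neither passed. Scaled by total counts in place of TMM, *Slc6a5* passed at 0.42 (unadjusted *p* = 0.0332, adjusted *p* = 0.949), beside 701 of the 19027 genes tested. The median interaction over all genes was 0.07 with that scaling and -0.03 with TMM. Females compared with males over both treatments gave 0 of 7 as well (3.94% of all genes), with log2 differences from -0.32 for *Slc6a9* to 0.08 for *Glrb*, and without morphine male 6 the count was again 0, with *Slc6a9* at -0.29. The X-linked *Glra2* stood at 31.4 ± 3.52 CPM in females and 30.1 ± 7.08 CPM in males (SD, n = 6 each).

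**Figure D4:**
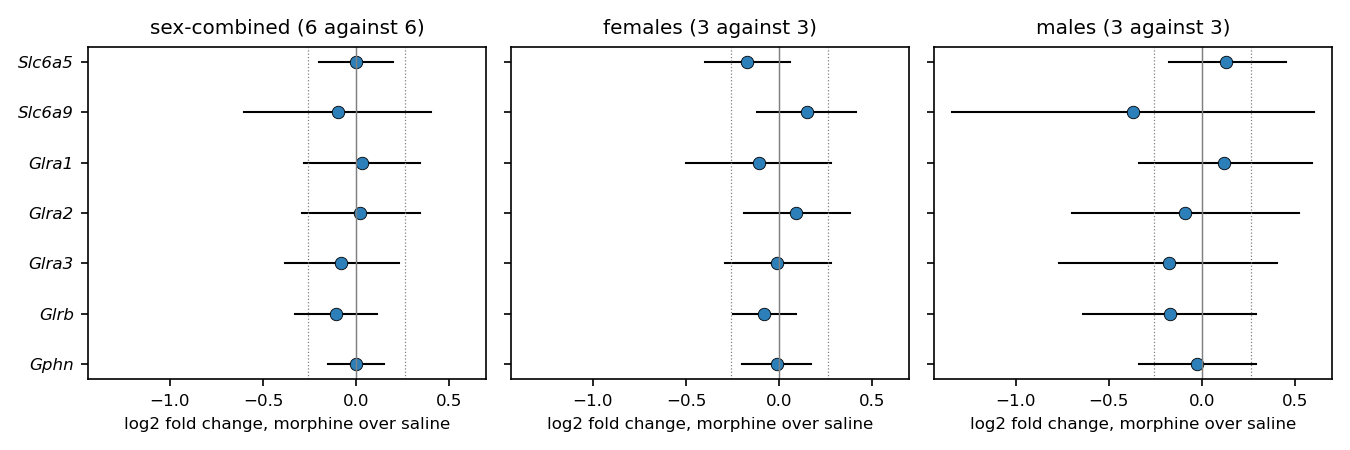
Log2 fold changes of morphine over saline for the 7 genes in the sex-combined, female, and male comparisons, with 95% intervals from the edgeR fit as lines; dotted lines mark the threshold of 0.26 in either direction. Every interval includes 0, and the male interval of *Slc6a9* is the widest, from -1.34 to 0.60.

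Leaving out saline male 3 changed the male comparison. The fit then set only saline males 1 and 2 against the 3 morphine males. Those 2 saline libraries had the highest GC measure, given below, of the 12, at 0.65 and 0.83. It was -0.82, the lowest, in saline male 3. The part of the GC measure in the changes was not tested. Without saline male 3, *Slc6a9* was lower in morphine males by a log2 fold change of -0.71 (unadjusted *p* = 0.00118, adjusted *p* = 0.0228 from edgeR), and *Slc6a5* was higher by 0.26 (unadjusted *p* = 0.017, adjusted *p* = 0.092). This made 2 of 7 members, but 28.6% of all genes tested also passed in that fit. The interaction then had 2 of 7 passing members, *Slc6a9* at -0.89 (adjusted *p* = 0.0155) and *Slc6a5* at 0.39 (adjusted *p* = 0.105), beside 24.1% of all genes. For females over males *Slc6a9* passed at -0.49 (adjusted *p* = 0.0727), beside 20.9% of all genes. Without saline male 2, in contrast, the male change of *Slc6a9* was -0.10, and without saline male 1 it was -0.19.

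The members of middling GC content, *Gphn* and *Slc6a5*, varied least among the saline males, and *Slc6a9*, with the highest, varied most. The longest transcripts had a GC content of 57.0% for *Slc6a9*, 52.7% for *Glra1*, 48.2% for *Slc6a5*, 48.1% for *Gphn*, 41.3% for *Glra2*, 40.8% for *Glrb*, and 35.2% for *Glra3*. As a measure of each library over 15056 genes, the mean log2 deviation of GC-poor genes (at most 46.2% GC) was subtracted from that of GC-rich genes (at least 52.5%). It was 0.65, 0.83, and -0.82 in saline males 1, 2, and 3, and 0.01, -0.17, and 0.40 in morphine males 4, 5, and 6. In females it was 0.00, -0.22, and -0.47 with saline and -0.09, -0.18, and 0.05 with morphine. *Slc6a9* deviated from its mean over the 12 mice by 0.70, 0.81, and -0.89 on the log2 scale in the saline males, and by 0.29 in morphine male 6. The 3 libraries with the highest GC measure and the 3 with the lowest were also the 3 highest and the 3 lowest for *Slc6a9*, in the same order. *Glrb* went the other way, with -0.15, -0.24, and 0.43 in the saline males and -0.22 in morphine male 6.

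Correcting each library for GC content and transcript length with loess offsets, an alternative chosen after the data were seen, narrowed the spread of *Slc6a9* from an SD of 0.46 to 0.16 on the log2 scale. For *Glrb* it went from 0.18 to 0.11 and for *Glra3* from 0.24 to 0.14, whereas *Glra1* stayed at 0.26. The median of genes of at least 20 CPM went from 0.19 to 0.13. With these offsets the male change of *Slc6a9* was -0.11 (unadjusted *p* = 0.464) rather than -0.37. With the offsets and without saline male 3 it was -0.28 (unadjusted *p* = 0.00442, adjusted *p* = 0.0488), and *Slc6a5* was at 0.13 (unadjusted *p* = 0.0625). In that fit 3536 of the 18652 genes tested also passed. What set the GC measure of the libraries was not tested.

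**Figure D5:**
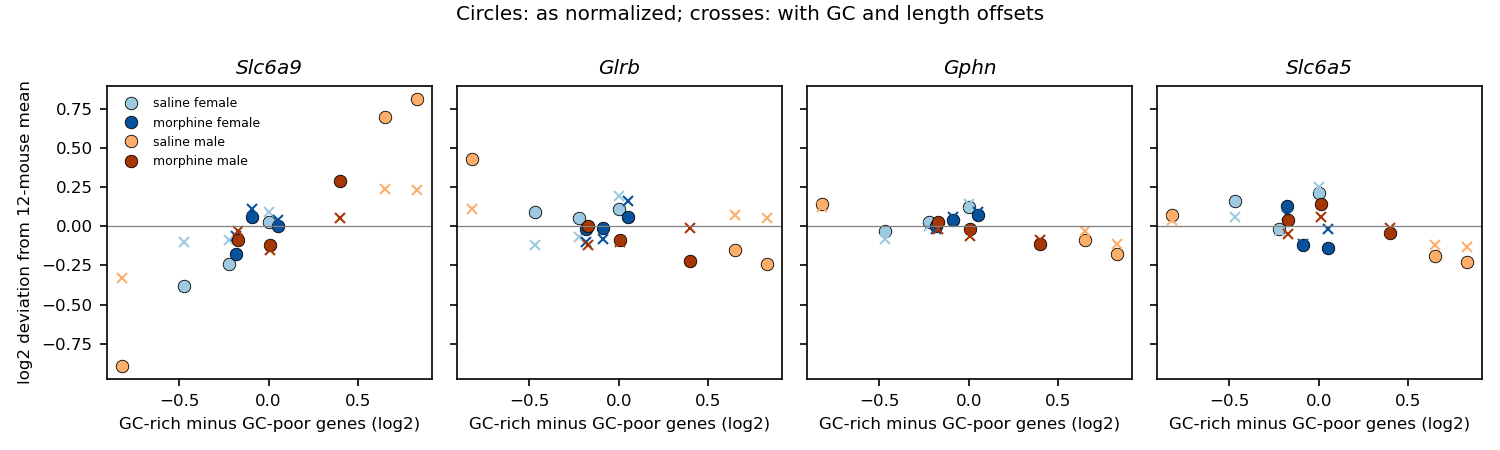
Log2 deviation of *Slc6a9*, *Glrb*, *Gphn*, and *Slc6a5* from the 12-mouse mean (y) against the GC-rich minus GC-poor measure of each library (x, log2), with circles as normalized and crosses with GC and length offsets, colored by group. *Slc6a9* runs from -0.89 in saline male 3 to 0.81 in saline male 2, *Glrb* runs the opposite way, and for *Slc6a9* the crosses run from -0.33 to 0.24.

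Genes whose log2 CPM most resembled a member's over the 12 mice were sought among 15055 genes of at least 1 CPM, as a description, since all points share the same libraries. For *Slc6a5* they were *Sv2c* (Pearson's r = 0.960), which encodes a synaptic vesicle protein, *Baz1a* (0.930), and *Utp15* (0.916), and 9 genes had an r above 0.9. For *Glra1* they were *Asb18* (0.917), *Herc2* (0.910), and *Syne1* (0.888), with 2 genes above 0.9. For *Slc6a9* they were *Mcrs1* (0.995), *Rpusd1* (0.994), and *Slc7a10* (0.994), but 2608 genes, 17.3% of those compared, exceeded 0.9. Its profile was therefore shared by a large share of the transcriptome, and those of *Slc6a5* and *Glra1* were shared by few genes.

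The 34 genes of the wider pathway were examined in the same fits, and 0 passed in the sex-combined comparison (1.19% of all genes), with log2 fold changes between -0.32 and 0.37. Of 6 genes for vesicle loading and GABA uptake, 0 passed in males or in both sexes combined and 1 was lower in females. *Slc32a1*, the vesicular transporter that loads both glycine and GABA, was at 98.8, 104.2, and 30.5 CPM in saline males, at 51.0, 44.8, and 64.5 CPM in morphine males, at 54.5, 44.0, and 36.5 CPM in saline females, and at 50.5, 47.4, and 57.4 CPM in morphine females. It repeated the pattern of *Slc6a9*, with a GC content of 61.9%, and its sex-combined log2 fold change was -0.17 (standard error 0.26). In males it was -0.57, and -0.92 without saline male 3 (adjusted *p* = 0.0149), where 1 gene of the list was higher and 3 were lower, beside 28.6% of all genes. The most abundant of the list, the GABA transporter gene *Slc6a11* (536.1 to 909.6 CPM), had a sex-combined log2 fold change of 0.02.

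*Slc6a13*, which encodes the GABA and taurine transporter GAT2 of the meninges, passed in females (beside 1.81% of all genes). It was at 7.79, 9.57, and 4.91 CPM in morphine females and at 10.9, 10.6, and 15.8 CPM in saline females. The groups thus did not overlap, as for 5.67% of all genes. Its log2 fold change was -0.75 (standard error 0.25, unadjusted *p* = 0.013), and its adjusted *p* was 1.00, or 0.00795 with no filter on low counts. With no filter, 1094 of the 34716 genes tested passed. An adjusted *p* under 0.05 was then found for 77 genes, against 0 in the main female fit. *Slc6a13* passed in 6 of the 6 fits that left out 1 female. A summed level of 4 meningeal fibroblast genes, a list added after the data were seen, was 67.1, 114.7, and 64.4 CPM in the same morphine females and 100.5, 116.3, and 143.3 CPM in the saline females, and its part in the result was not tested. The choroid plexus markers were at 163.6, 29.3, and 128.0 CPM and at 9.68, 40.2, and 471.9 CPM.

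Of 10 genes of the inhibitory postsynapse and of gephyrin's partners, 0 passed in females, and 1 was lower in males (beside 2.99% of all genes). That gene, *Dynll1*, encodes a dynein light chain that binds gephyrin. It was at 118.4, 137.8, and 142.2 CPM in morphine males and at 181.1, 177.9, and 163.2 CPM in saline males. The groups did not overlap, as for 8.86% of all genes. Its log2 fold change was -0.42 (standard error 0.13, unadjusted *p* = 0.0133, adjusted *p* = 1.00), -0.43 without saline male 3 (adjusted *p* = 0.0429, in a fit where 28.6% of all genes passed), -0.42 with the GC and length offsets, and -0.48 without morphine male 6. It did not pass without morphine male 4 (-0.34, unadjusted *p* = 0.0707) or without morphine male 5 (-0.39, unadjusted *p* = 0.0682). The summed level of 5 cerebellar granule cell markers also separated the males, at 40.2 to 80.2 CPM with morphine and 31.2 to 32.1 CPM with saline. That of 5 neuron markers did so in the other direction, at 3785.7 to 3868.9 CPM with morphine and 4141.4 to 4488.7 CPM with saline. The males overlapped in the summed level of every other marker list. For 3 cerebellar Purkinje cell markers it was 74.8 to 126.2 CPM with morphine and 74.4 to 123.7 CPM with saline. The part of the granule cell or the neuron list in the *Dynll1* result was not tested. The most abundant of the list were the kinesin gene *Kif5a* and the second dynein light chain gene *Dynll2*, at -0.06 and -0.02.

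Of 10 genes of glycine synthesis, cleavage, and exchange, 0 passed in females, males, or both combined, and the list's median log2 fold change in males was -0.23 against -0.06 for all genes, or -0.13 with the GC and length offsets and -0.36 without morphine male 6. Without saline male 3, 4 of the 10 were lower in morphine males, beside 28.6% of all genes. With the offsets as well it was 5 of the 10, beside 3536 of the 18652 genes tested. The 4 without the offsets were the serine synthesis genes *Phgdh* (-0.90, adjusted *p* = 0.0142) and *Psph* (-0.46, adjusted *p* = 0.0806), the hydroxymethyltransferase gene *Shmt2* (-0.87, adjusted *p* = 0.0258), and the amino acid exchanger gene *Slc7a10* (-0.83, adjusted *p* = 0.0273). GC content was 57.2% for *Phgdh*, 49.6% for *Psph*, 57.4% for *Shmt2*, and 57.0% for *Slc7a10*, beside 57.0% for *Slc6a9*. Its part in these changes was not tested. Without saline male 3 *Phgdh* also passed in both sexes combined (-0.45, unadjusted *p* = 0.019), beside 458 of 18911 genes. *Gldc*, the decarboxylase of the glycine cleavage system, lay at only 4.05 to 7.35 CPM and had a sex-combined log2 fold change of 0.10 (standard error 0.14). *Psat1*, an enzyme of serine synthesis, and *Dld*, a subunit shared by several dehydrogenase complexes, were the most abundant and had log2 fold changes of -0.02 and -0.05. Of the chloride cotransporter genes, which set whether an open glycine receptor inhibits, *Slc12a5* (KCC2) was at 287.6 ± 41.6 CPM in morphine mice and 293.9 ± 92.9 CPM in saline mice (SD, n = 6 each), a log2 fold change of -0.02 (0.16). *Slc12a2* (NKCC1) was at 388.8 ± 47.6 and 408.1 ± 69.4 CPM, with -0.07 (0.12), and neither passed in either sex, although *Slc12a5* passed in males without saline male 3 (-0.38, adjusted *p* = 0.117). Compared between the sexes over both treatments, *Slc6a13* (-0.49) and *Slc12a5* (-0.34) were lower in females (beside 3.94% of all genes), with adjusted *p* = 0.73 for both, and with the GC and length offsets their values were -0.32 and -0.05 and neither passed. Neither passed without morphine male 6 (-0.47 and -0.30).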

How the data were processed

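RNA of 12 brainstem samples was sequenced by the authors as poly-A, 100-base single-end libraries. Reads were trimmed, STAR placed them on mm10, and featureCounts tallied those on Ensembl exon features. The deposited values are whole-number counts per gene with no normalization, from 27850565 to 48097947 per library (median 33214511). A strand setting and the aligner's treatment of shared reads were not given in the sources used here. The paper and labels name brainstem, whereas the label text on extraction names spinal cords.

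Samples were grouped by the labels. All genes were fitted with the quasi-likelihood test of edgeR 4.0.16 (TMM, filterByExpr, R 4.3.3), for both sexes together with a sex term (which also gave the sex comparison), for each sex alone, and for an interaction over the 12 mice. Values of p were adjusted by Benjamini-Hochberg over all genes tested. Genes passed with unadjusted p under 0.05 and absolute log2 fold change over 0.26, as in the study. Logs used a prior count of 2. Ratios were tested by exact permutation. Positions, lengths, and GC content came from GENCODE M21 on GRCm38, where all 55418 symbols matched and 115 stand for more than 1 gene. All 7 members passed the filter on low counts in every fit.

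The members and lists were chosen with earlier results of these data known. Named were all members, every list gene that passed, the 2 most abundant genes of each list, further genes of the pathway (some genes that this rule picks are not reported here), and the 3 genes most like *Slc6a5*, *Glra1*, and *Slc6a9*. Alternatives were DESeq2 1.42.0, its size factors, total counts, no filter, a filter of 10 counts, exactTest, no covariate, a replicate block, unadjusted p alone, the fit of all 12 mice, and each mouse left out. Offsets for GC content and length (span 0.5), alone and without saline male 3, and leaving out mice for the pathway genes were added after the data were seen. Code was tested on simulated data. The paper describes a mixed-litter design, in which the pups of a litter were divided at random between saline and morphine. The labels give no litter and do not say that mice came from separate litters. The tests could therefore not pair littermates, and p values measure the spread between these mice.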

Additional observations from a re-analysis of the deposited data

Results flagged for a closer look

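The change with morphine differed between the sexes for 3 genes of the wider pathway by the interaction term, beside 2.94% of all genes, and none of the 3 had an adjusted *p* under 0.98. For *Slc6a13* the change in males minus that in females was 0.84 (standard error 0.38, unadjusted *p* = 0.0458), with -0.75 in females and 0.07 in males. It was 1.01 with GC and length offsets and it did not pass with DESeq2's size factors (0.81, unadjusted *p* = 0.0519), without saline male 3 (0.67, unadjusted *p* = 0.0818), or without morphine male 6 (0.88, unadjusted *p* = 0.0552). It passed in 3 of the 12 fits that left out 1 mouse. For *Dynll1* the difference was -0.47 (standard error 0.17, unadjusted *p* = 0.0187), with 0.07 in females and -0.42 in males, and it was -0.53 both with the offsets and without saline male 3, and -0.52 without morphine male 6. It passed in 10 of the 12 fits, and not without morphine female 3 (-0.37) or morphine male 4 (-0.39). For *Gcsh*, a carrier protein of the glycine cleavage system, it was -0.72 (standard error 0.31, unadjusted *p* = 0.0377), with 0.14 in females and -0.60 in males. Saline male 3 held 115.8 CPM of *Gcsh*, the highest of the 12, and without it the difference was -0.38 (unadjusted *p* = 0.0438). It did not pass with scaling by total counts (-0.62, unadjusted *p* = 0.0677) or without morphine male 6 (-0.67, unadjusted *p* = 0.0718), and it passed in 5 of the 12 fits. Without saline male 3, 24.1% of all genes passed this test.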

How the results depend on the processing

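Among 623 values of the 7 genes under the alternatives, 4 reversed, 10 passed the thresholds where they otherwise did not, 0 stopped passing, and 78 changed sign with both values within 1 standard error. The number of passing members was 0 in every comparison. With scaling by total counts it was 1 for the interaction (*Slc6a5*), beside 701 of all 19027 genes tested. With GC and length offsets without saline male 3 it was 1 in males (*Slc6a9*), beside 3536 of 18652 genes. In that setting it was also 1 for the interaction (*Slc6a9*), beside 3025 of 19472 genes. Leaving out 1 mouse at a time gave 0 in the sex-combined comparison, 0 to 1 in females, and 0 to 2 in males. It gave 0 to 2 for the interaction and 0 to 1 for females over males. Without morphine female 2 the interaction had 1, *Slc6a5* at 0.41, beside 856 of the 19430 genes tested. All 4 reversals came without saline male 3, with *Glra2* at 0.25, *Glrb* at 0.10, and *Gphn* at 0.10 in males and *Glrb* at 0.14 for the interaction, and the cause was not tested. Over all left-out mice these ran from -0.28 to 0.25, -0.30 to 0.10, -0.09 to 0.10, and -0.20 to 0.14. Scaling by total counts raised the share of passing genes that were higher in morphine males from 64.3% to 91.3%, and moved the median change over the genes tested there from -0.06 to 0.06 (log2). Replicate numbers join mice of opposite sex, and their deviations correlated at -0.36 to 0.18. Neither can show whether a number joins littermates, since the labels give no litter. With the replicate number as a block 0 members passed and *Slc6a9* was at -0.02. Depth did not limit these genes, since each held at least 846 counts in a library, but 3 mice per group limit the within-sex intervals.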

Other observations

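*Glra4*, the remaining α subunit gene, was barely expressed at 0.682 to 2.51 CPM. It stood at 0.682, 0.939, and 1.14 CPM in saline males and at 2.51, 1.25, and 1.30 CPM in morphine males, so the males did not overlap, as for 8.86% of all genes, and the log2 fold change there was 0.85 (standard error 0.37, unadjusted *p* = 0.0532). It was -0.15 in females and 0.37 in both sexes combined, and its adjusted *p* was 1.00 in each. Without saline male 3 the male value was 1.05 (unadjusted *p* = 0.0228, adjusted *p* = 0.107), a fit in which 28.6% of all genes passed. The male change also passed with DESeq2 (0.87, unadjusted *p* = 0.0386), with its size factors in edgeR (0.87, *p* = 0.0499), with total counts (0.98, *p* = 0.0337), with the GC and length offsets (0.86, *p* = 0.0416), with exactTest (0.85, *p* = 0.0415), and without morphine male 6 (1.00, *p* = 0.0496). It did not pass without saline male 1 (0.67), saline male 2 (0.86), or morphine male 4 (0.45). Of all 18166 genes, 534 passed in males with DESeq2, 541 with its size factors, and 807 with total counts. With the offsets 1217 did, and with exactTest 542. Without morphine male 6 it was 462 of 18697. Of 5 genes of the molybdenum cofactor pathway, in which gephyrin makes the cofactor itself, 0 passed in the sex-combined, female, male, or interaction comparison. For the interaction 1 was higher with scaling by total counts (beside 701 of all 19027 genes tested). The same held with at least 10 counts in every library (413 of 16064) and without morphine female 1 (452 of 19531). Without saline male 3, 1 was lower (24.1% of all genes). With the GC and length offsets and without saline male 3, 2 were higher in males (3536 of 18652) and 2 for the interaction (3025 of 19472). *Mocs2*, a subunit of the preceding enzyme, was the most abundant at 67.5 to 89.8 CPM with a sex-combined log2 fold change of -0.02 (standard error 0.08). *Suox*, which encodes the cofactor-dependent sulfite oxidase, was at 12.2 to 17.0 CPM with -0.13 (0.10).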
